A study of Mus musculus with 2 samples.

Results

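The genes described here are the type 2 cytokines Il4, Il5 and Il13 and the chains of their receptors, Il4ra, Il13ra1, Il2rg and Il5ra. They were taken by symbol and make up 7 of the 35208 gene rows of a single-cell cDNA library. The cells were taken from the inflamed ears of wild-type (WT) and Ccr2-/- mice on the BALB/c background, in a model of IgE-mediated chronic allergic inflammation (IgE-CAI). Ccr2-/- mice lack the chemokine receptor CCR2, through which classical monocytes enter inflamed tissue. Per the methods of the study, male mice of 7 to 12 weeks were used. Every group had received 300 µg of anti-TNP IgE intravenously and, on the following day, 10 µg of TNP-coupled ovalbumin in the ear skin, and no untreated skin was among the cells analysed. WT and Ccr2-/- skin was taken on day 3 and on day 5 after challenge, which gave 4 groups. Each group was a pool of cells marked with its own hashtag antibody, with 1 pool per genotype and day. How many mice a pool held is not stated, so genotype and pool cannot be told apart and tests over pools measure the spread between these 4 pools only. Where 4 values follow each other without a label, they are given for WT on day 3 and day 5 and then for Ccr2-/- on day 3 and day 5. Where 3 values do, WT day 5 is missing because it had no cell.

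IL-4 and IL-13 are small secreted cytokines of allergic inflammation that are made by basophils, mast cells, group 2 innate lymphoid cells (ILC2s) and Th2 cells. IL-4 binds the IL-4 receptor α chain (Il4ra), which pairs with the common γ chain (Il2rg) in the type I receptor or with IL-13 receptor α1 (Il13ra1) in the type II receptor. IL-13 uses the type II receptor alone, while Il13ra2 encodes a decoy chain. IL-5 acts on eosinophils through Il5ra and a β chain shared with IL-3 and GM-CSF, encoded by Csf2rb. Signals from the type I and type II receptors run through JAK kinases to STAT6.

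The 3 cytokine genes lie together on mouse chromosome 11 (GENCODE M21 on GRCm38). Il4 spans 53602982 to 53618669 on the minus strand, Il13 spans 53631324 to 53634702 on the minus strand, and Il5 spans 53720794 to 53725106 on the plus strand. The gap between Il4 and Il13 is 12654 bases and that between Il13 and Il5 is 86091 bases. The receptor genes are spread over chromosome 7 (Il4ra, 125552120 to 125579474, plus strand), chromosome X (Il13ra1, 36112110 to 36171259, plus strand, and Il2rg, 101264378 to 101268255, minus strand) and chromosome 6 (Il5ra, 106710357 to 106749037, minus strand).

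All 7 genes had an entry in the RefSeq promoter table (GRCm38.p6). The 250 bases before the start are shown for Il4 and Il13, neighbours that were often read in the same cells, and for Il13ra1 and Il2rg, the alternative partner chains of Il4ra that were highest in different gates. In the cytokine promoters capitals mark GATA on either strand (GATA or TATC) and TTCNNNNGAA, the letters of a STAT site with the spacing known for STAT6. In the receptor promoters capitals mark CG. The positions are chr11:53618666-53618915 for Il4 and chr11:53634703-53634952 for Il13, both on the minus strand, chrX:36111858-36112107 on the plus strand for Il13ra1 and chrX:101268256-101268505 on the minus strand for Il2rg.
Il4: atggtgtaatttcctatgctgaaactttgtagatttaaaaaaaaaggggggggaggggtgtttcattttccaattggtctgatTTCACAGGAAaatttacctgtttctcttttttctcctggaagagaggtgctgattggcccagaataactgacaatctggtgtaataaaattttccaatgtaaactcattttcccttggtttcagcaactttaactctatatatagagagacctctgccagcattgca
Il13: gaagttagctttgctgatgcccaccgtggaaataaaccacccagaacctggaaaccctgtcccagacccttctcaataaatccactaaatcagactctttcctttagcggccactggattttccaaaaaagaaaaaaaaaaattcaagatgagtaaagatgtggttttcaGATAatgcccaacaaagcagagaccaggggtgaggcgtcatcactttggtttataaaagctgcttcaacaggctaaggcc
Il13ra1: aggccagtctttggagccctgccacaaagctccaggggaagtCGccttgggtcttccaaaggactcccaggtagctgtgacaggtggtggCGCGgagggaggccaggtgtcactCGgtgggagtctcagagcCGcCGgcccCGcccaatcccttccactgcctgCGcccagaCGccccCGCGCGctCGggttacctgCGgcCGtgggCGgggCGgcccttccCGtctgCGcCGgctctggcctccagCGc
Il2rg: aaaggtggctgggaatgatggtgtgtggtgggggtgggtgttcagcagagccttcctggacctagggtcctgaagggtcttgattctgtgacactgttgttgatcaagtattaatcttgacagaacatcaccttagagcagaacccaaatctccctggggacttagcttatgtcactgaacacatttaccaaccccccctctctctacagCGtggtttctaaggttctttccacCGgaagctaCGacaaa

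The printed Il4 window held no GATA match and 1 TTCNNNNGAA match, while the Il13 window held 1 GATA match and no TTCNNNNGAA match. The table has a second Il4 start, whose window (chr11:53617339-53617588, minus strand, not shown) held 3 GATA matches and no TTCNNNNGAA match, so the content of an Il4 window depends on the start chosen. GATA was found in 53.6% of the 32851 promoter windows of this length, TTCNNNNGAA in 5.85% and CG in 92.1%, so a GATA match is common. The Il13ra1 window held 21 CG and was 70.8% G or C, and the Il2rg window held 3 CG and was 49.2% G or C, beside a median of 6 CG over all windows. The Il4ra window, which is not shown, held 17 CG. These are matches of letters and say nothing of whether a factor bound there.

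The cDNA matrix held 8953 barcodes with 548117598 reads, of which 7118 cells were kept and assigned to a pool. The pools held 1037 to 2347 cells, with a median of 18632 reads per cell in Ccr2-/- day 5 and of 34410 to 48232 in the others. The values are reads and not molecules, so the intervals given cover counting error only. Ccr2, the deleted gene, had 892 and 623 CPM (reads per 1000000 reads) in the macrophage gate of WT day 3 and day 5, and 80.9 and 39.9 CPM in that of Ccr2-/-. Cell types were set by gates on marker genes, none of which is a gene described here. A marker counted as high at 5% of its 20th highest CPM. A cell entered a gate with at least 3 high markers (4 for fibroblasts, neutrophils, endothelial cells and pericytes). The basophil gate (Mcpt8, Prss34, Cd200r3, Fcer1a) held 48 cells, the mast gate (Cma1, Mcpt4, Tpsb2, Kit, Mrgprb1, Mrgprb2) 102, the T gate 162, the macrophage gate 930 and the fibroblast gate 2064. A further 1953 cells passed no gate and 179 passed several. Marker levels overlapped between basophils and mast cells: Mcpt8 was read in 33.3% of mast gate cells (267 CPM), and Cma1 in 14.6% of basophil gate cells (2985 CPM). Prss34 was read in 22.9% of the basophil gate, which makes that gate strict. The 86 cells with 1 marker too few outnumber the 41 that just passed. Cells with Mcpt8 at its threshold and no other gate were therefore described beside it, a choice made after the data were seen. This Mcpt8 set held 141 cells.

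Il4 was high in the basophil and mast gates and was not read in the T gate. Il4 had 9271 reads in kept cells, of which 59.4% lay in cells with no gate, 7.85% in the mast gate and 5.81% in the strict basophil gate. In the cluster named basophil from its markers (157 cells) lay 68.0% of the Il4 reads. The clustering did not leave out the genes described here, so the shares of Il4 and Il13 reads in clusters are not independent of these genes. The basophil gate had 727 CPM on WT day 3 (95% interval 546 to 948, from 54 reads), 552 CPM on Ccr2-/- day 3 (493 to 617) and 313.3 CPM on Ccr2-/- day 5 (268 to 364, from 172 reads). WT day 5 had no cell in this gate, and all 54 reads of WT day 3 came from 1 of 4 cells. In the Mcpt8 set Il4 had 1553, 619 and 2889 CPM, where 44.0%, 56.1% and 66.1% of the cells had a read. The 25 WT day 3 cells included 1 that held 59.2% of the reads of that pool. The order of the pools thus differed between the basophil gate, where Ccr2-/- day 5 was lowest, and the Mcpt8 set, where it was highest.

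In the mast gate Il4 had 190 CPM (142 to 249, from 53 reads) and 168.5 CPM (138 to 204, from 104 reads) in WT, and 205 CPM (187 to 224, from 490 reads) and 50.2 CPM (39.9 to 62.4, from 81 reads) in Ccr2-/-. The share of mast gate cells with a read was 50.0%, 66.7%, 65.4% and 32.3%, so Ccr2-/- day 5 was lowest in both measures. No Il4 read was found in 162 T gate cells (3358459 reads), which allows up to 1.85% of cells with a read, or 0.893 CPM, and sets no limit on cells that express Il4 without a read. The larger cluster named T (250 cells) had 29 Il4 reads in 2 cells, or 5.71 CPM, so the absence of reads holds for the T gate only. Over all pools Il4 was at least 507-fold higher in the basophil gate (453 CPM) and at least 166-fold higher in the mast gate (149 CPM) than this limit of 3 reads in the T gate. The basophil gate had a higher Il4 level than the mast gate by 2.49 ± 1.19 (log2 fold change ± SE), which did not pass the edgeR test (adjusted p = 0.198), nor with the Mcpt8 set in its place (4.03 ± 1.37, adjusted p = 0.0659). It passed without the filter on low counts (2.48 ± 0.65, adjusted p = 0.00664), and the other alternatives gave adjusted p from 0.136 to 0.493.

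Low Il4 levels in the other gates rested on few cells. The macrophage gate had 1.19, 4.94, 1.11 and 2.05 CPM, and 87.4% of the WT day 5 reads were in 1 cell. The fibroblast gate had 41.5, 0.484, 5.39 and 0.606 CPM. Of its 2186 Il4 reads 2064 were in 2 cells that also had Mcpt8 at its threshold, and without them the level was 0.463 CPM. Thinned to 10000 reads per cell, Il4 was read in 45.5% of basophil gate cells, 50.0% of mast gate cells, 1.22% of macrophage gate cells and 0.612% of fibroblast gate cells. Among types not known to make IL-4, the share was 0.478% in the neutrophil gate (median depth 10040 reads) and 0.392% in the NK gate (24436), against median depths of 55216 in the macrophage and 98346 in the fibroblast gate. The fibroblast share was thus close to that of neutrophils and is read as background. Against the macrophage gate, Il4 was higher in the basophil gate (7.94 ± 1.51, adjusted p = 0.00302) and in the mast gate (5.45 ± 1.39, adjusted p = 0.0197). Without Ccr2-/- day 3 both were lost (adjusted p = 0.0712 and 0.224), and the mast call was also lost without Ccr2-/- day 5 (0.0966).

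Il13, the neighbour of Il4, was also read in the basophil and mast gates. Its level there was below that of Il4, except in the mast gate of Ccr2-/- day 5 (58.3 against 50.2 CPM). Of its 2043 reads, 23.5% lay in the mast gate, 11.6% in the basophil gate and 49.1% in cells with no gate, while the basophil cluster held 59.1%. In the basophil gate it had 26.9 (2 reads), 305 (173 reads) and 111 CPM (61 reads). In the Mcpt8 set it had 151, 240 and 491 CPM, and 61.4% of the WT day 3 reads were in 1 cell, without which that pool had 60.3 CPM. The mast gate had 0, 63.2, 145 and 58.3 CPM, the 0 resting on 10 cells. Il13 was read in 2 of 162 T gate cells, with 18.3 CPM in WT day 3 and 2.27 in Ccr2-/- day 3, each from 1 cell, and the cluster named T had 32.1 CPM from 9 of 250 cells. The ILC2 gate (37 cells in no other gate, with 3 of Il7r, Gata3, Il1rl1, Klrg1, Rora and Icos) had 133 CPM, from 6 cells, 1 of which was the only WT day 5 cell of the gate and held 42 of the 110 reads. The basophil gate was above the T gate by 6.49 ± 1.42 (log2 fold change ± SE, adjusted p = 0.00763) and the mast gate above it by 4.81 ± 1.33 (adjusted p = 0.0240). Both Il13 calls were lost without Ccr2-/- day 3 (0.216 and 0.324) or without Ccr2-/- day 5 (0.104 and 0.207). Basophil minus mast was 1.68 ± 1.17 (adjusted p = 0.383). Basophil minus fibroblast was 9.08 ± 1.43 (adjusted p = 2.379e-04), and 8.38 to 9.49 without any single pool. The basophil gate entered the fit with Ccr2-/- pools only, so leaving out a WT pool took away no basophil value. Il13 may also have entered the tests through the gates where it is high.

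**Figure D1:**
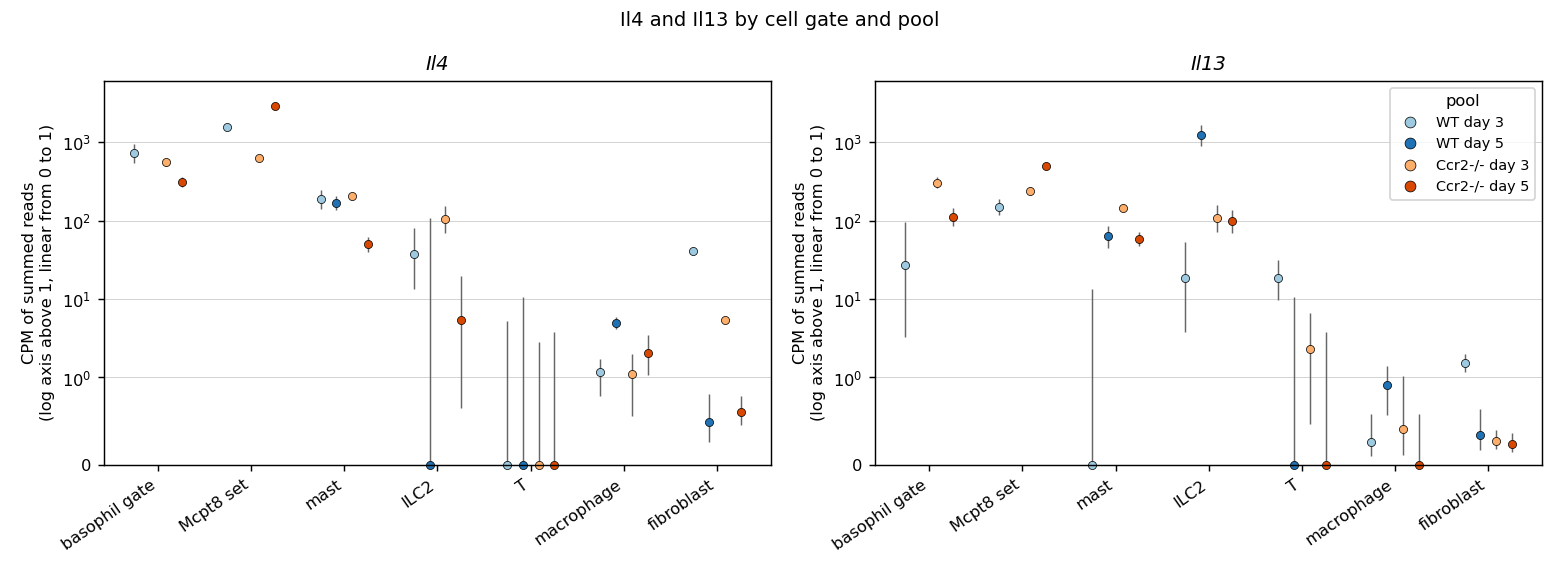
CPM of summed reads of Il4 (left) and Il13 (right) for each cell gate (x axis) and pool (colour), on an axis that is logarithmic above 1 and linear from 0 to 1, with exact Poisson 95% intervals as bars. The basophil gate, the Mcpt8 set and the mast gate lie above 50 CPM for Il4 in every pool that has cells, the T gate lies at 0, and the 2 high fibroblast points of Il4 (41.5 and 5.39 CPM) each rest on 1 cell.

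Over all kept cells 375 had an Il4 read and 166 an Il13 read, and 82 had both, which is 21.9% of the Il4 cells and 49.4% of the Il13 cells. The share of Il13 cells with Il4 was 36.8%, 23.8%, 63.6% and 46.7% in the 4 pools. In the Mcpt8 set 82 of 141 cells had an Il4 read, 52 had an Il13 read and 41 had both, which is 50.0% of the Il4 cells and 78.8% of the Il13 cells. In the mast gate 55 of 102 cells had Il4, 34 had Il13 and 26 had both, 47.3% of the Il4 cells and 76.5% of the Il13 cells. In the ILC2 gate 3 cells had Il4, 6 had Il13 and none had both. Depth differs between cells, and deeper cells have more chance of both reads, so these shares are given as a description.

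Il4 without Il13 was found in another group of cells. By clustering, 275 cells that were closest to the eosinophil markers stayed without a name, since only 2 of those markers passed. Their leading genes included Retnlg, Prg2, Alox15 and Ccr3, and their median depth was 4390 reads. Il4 was read in 64 of them (23.3%), with 340, 92.4, 323 and 238 CPM, while Il13 was read in 1 cell (8 reads). WT day 5 was lowest and rested on 8 Il4 reads. In the cluster named basophil from its markers (157 cells), Il4 was read in 48.1%, 56.1% and 66.1% and Il13 in 18.5%, 40.9% and 46.8% of the cells of the 3 pools with more than 2 cells, at median depths of 16124 to 20069 reads. The depth of the clusters differed by over 3 times, and no test was made because cells were clustered on the same expression values.

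Il5 was close to absent from the library. It had 65 reads in 7118 cells, of which 12 were in 1 ILC2 gate cell of WT day 3, and 9 and 7 were in single fibroblast gate cells. No Il5 read was found in 48 basophil gate cells or 162 T gate cells, which allows up to 6.25% and 1.85% of cells with a read and sets no limit on cells that express the gene without one. The mast gate had 1 read. Il5 did not pass the filter on low counts, so the gate tests hold 6 of the 7 genes.

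Il4ra was read in all 5 gates and was highest in macrophages. Of its 131830 reads 52.4% lay in the fibroblast gate and 27.2% in the macrophage gate. The macrophage gate had 774 CPM (95% interval 763 to 786) in WT day 3, 240 (234 to 246) in WT day 5, 870 (852 to 889) in Ccr2-/- day 3 and 625 (606 to 645) in Ccr2-/- day 5. WT day 5 was the lowest of the 4, and its interval did not overlap with the others. The share of macrophage gate cells with a read, at 10000 reads per cell, was 78.6%, 52.9%, 78.8% and 78.3%. The T gate had 373, 205, 268 and 197 CPM and the fibroblast gate 185, 127, 270 and 327 CPM. The mast gate had 21.5, 94.0, 156 and 85.0 CPM, and the basophil gate 0 in WT day 3, 26.5 in Ccr2-/- day 3 and 12.8 in Ccr2-/- day 5.

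Over all pools the order of Il4ra was macrophage (570 CPM), T (263), fibroblast (262), mast (117) and basophil (18.5). The macrophage gate exceeded the T gate, since T minus macrophage was -1.40 ± 0.39 (adjusted p = 0.0177). It also exceeded the fibroblast gate by 1.25 ± 0.39 (adjusted p = 0.0270), but both calls were lost without Ccr2-/- day 3 (adjusted p = 0.0928 and 0.106) or without Ccr2-/- day 5 (0.0838 and 0.0703). The T and fibroblast gates were not told apart (-0.15 ± 0.39, adjusted p = 0.818). The mast gate was below the fibroblast gate by 1.87 (log2 fold change -1.87 ± 0.45, adjusted p = 0.00758), a call lost without Ccr2-/- day 5 (adjusted p = 0.0575). The basophil gate was below the mast gate (-2.16 ± 0.61, adjusted p = 0.0350), a call lost without either Ccr2-/- pool (0.261 and 0.295), while the Mcpt8 set gave -2.03 ± 0.51 (adjusted p = 0.0148). The basophil gate was thus lowest in Il4ra among the 5 gates. Basophil against macrophage was -5.28 ± 0.67 (adjusted p = 6.003e-05), and -5.87 to -5.07 without any single pool. Leaving out a WT pool took away no basophil value, since that gate entered the fit with Ccr2-/- pools only.

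Il13ra1 was high in fibroblasts and nearly level across the pools. The fibroblast gate had 121, 118, 117 and 121 CPM, and held 72.0% of the 43608 reads. The macrophage gate had 28.2, 21.9, 27.4 and 28.1 CPM. The mast gate had 0, 0, 1.25 and 1.24 CPM, the T gate 4.22, 0, 3.03 and 1.02 CPM, and the basophil gate no read in 1190033 reads. At 10000 reads per cell, Il13ra1 was read in 46.4% of fibroblast gate cells and 13.8% of macrophage gate cells, against 1.06% in the mast gate, 0.725% in the T gate and 0.784% in the NK gate. The mast and T shares were thus near the level in NK cells and are read as background. The macrophage gate was below the fibroblast gate by 2.34 (log2 fold change -2.34 ± 0.45, adjusted p = 0.00115) and the T gate below the macrophage gate (-3.80 ± 0.59, adjusted p = 2.677e-04), and both calls held without any single pool. Mast and T cells were not told apart (-0.88 ± 0.85, adjusted p = 0.563). Against the limit of 3 reads in the basophil gate, Il13ra1 was at least 47.2-fold higher in the fibroblast and at least 10.2-fold higher in the macrophage gate. Outside these 5 gates, the neutrophil gate (832 cells) had 219.6 CPM, with a read in 27.5% of its cells at 10000 reads. The pericyte gate (50 cells) had 125 CPM, with a read in 39.6% of its cells at 10000 reads. The chondrocyte gate (26 cells) had 105 CPM, so a high level was not particular to fibroblasts.

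Il2rg, the common γ chain, had nearly the reverse order. The mast gate had 337, 277, 394 and 316 CPM, the T gate 262, 185, 351 and 415 CPM, and the macrophage gate 123, 95.7, 68.2 and 77.7 CPM. The basophil gate had 188, 180 and 248 CPM in the 3 pools with cells. The fibroblast gate had 4.36, 2.25, 1.81 and 2.17 CPM, below every other value. At 10000 reads per cell, 1.17% of fibroblast gate cells had a read, against 3.28% in the keratinocyte gate. Mast against T (0.28 ± 0.36, adjusted p = 0.681) and basophil against T (-0.23 ± 0.42, adjusted p = 0.771) were not told apart. Basophil minus macrophage was 1.25 ± 0.43 (adjusted p = 0.0473), a call lost without either Ccr2-/- pool (0.271 and 0.430). Macrophage minus fibroblast was 5.00 ± 0.39 (adjusted p = 1.114e-07) and held without any single pool. The macrophage gate held 32.3% of the 19373 Il2rg reads.

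**Figure D2:**
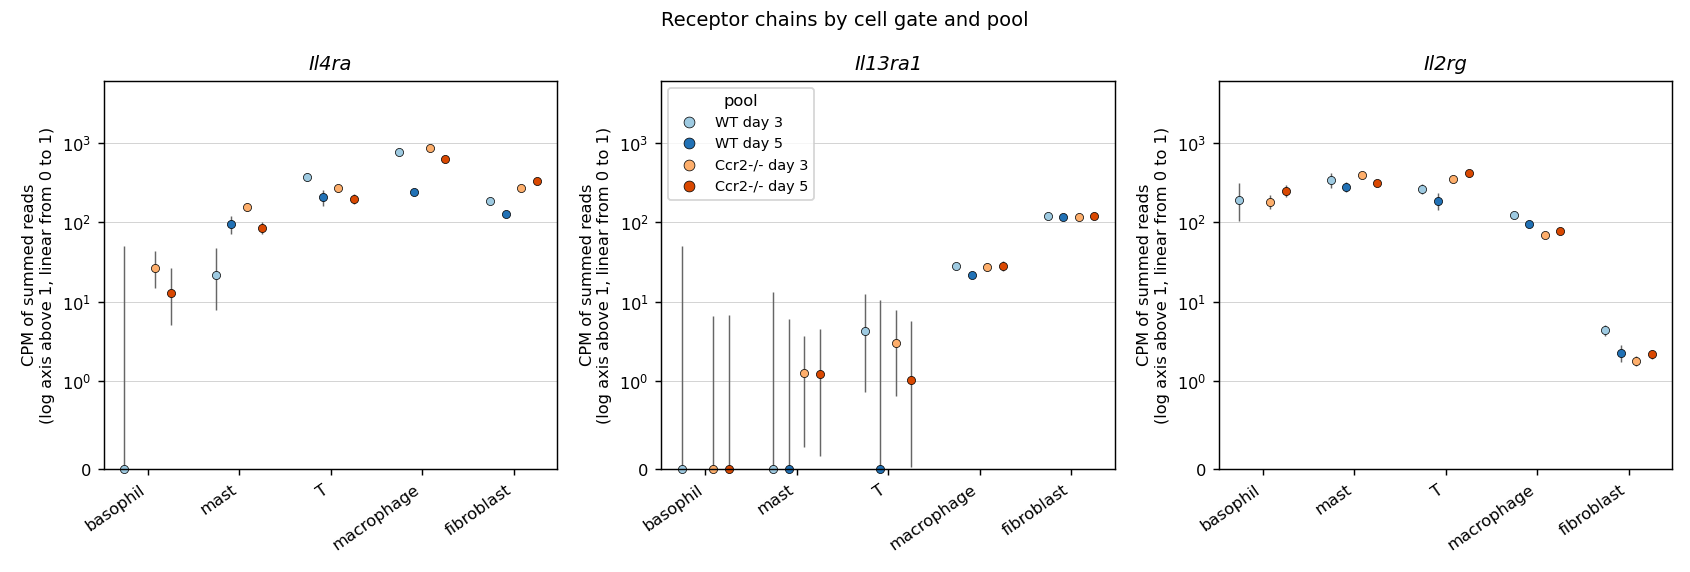
CPM of summed reads of Il4ra, Il13ra1 and Il2rg for the 5 gates (x axis) and 4 pools (colour), on an axis that is logarithmic above 1 and linear from 0 to 1, with exact Poisson 95% intervals as bars. Il13ra1 lies at 117 to 121 CPM in fibroblasts and at 0 in basophils, Il2rg lies at 1.81 to 4.36 CPM in fibroblasts and at 180 CPM or more (rounded) in basophil, mast and T cells, and Il4ra is present in all but the WT day 3 basophil gate.

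The partner chain of Il4ra therefore differed between gates. The log2 ratio of Il2rg to Il13ra1 (CPM plus 1) was -5.39 to -4.51 in the fibroblast gate, 1.28 to 2.09 in the macrophage gate, 5.65 to 7.68 in the T gate, 7.50 to 7.96 in the basophil gate and 7.14 to 8.40 in the mast gate. Il13ra1 had no read in any basophil pool, in both WT mast pools and in WT day 5 of the T gate, where the ratio is set by the pseudocount. The pools with reads had 7.45 and 7.14 in the mast gate and 5.65, 6.45 and 7.68 in the T gate. The ratio also depends on the lengths of the transcripts, which were taken to be the same in every gate and were not measured. Among pools with Il13ra1 reads, neither the fibroblast nor the macrophage gate overlapped with any other gate. Within the macrophage gate, whose subsets were not separated, the ratio was higher in WT (2.09 and 2.08) than in Ccr2-/- (1.28 and 1.44).

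Reads in single cells showed the same division. In the fibroblast gate 47.1% of the cells had Il4ra with Il13ra1 but not Il2rg, 0.630% had Il4ra with Il2rg but not Il13ra1, 5.33% had all 3 chains and 11.05% had Il4ra alone. In the mast gate these shares were 0.980%, 37.3%, 1.96% and 12.7%, and in the T gate 1.23%, 29.0%, 0 and 16.7%. The macrophage gate had both kinds of pair, with 9.25% Il4ra and Il13ra1, 31.6% Il4ra and Il2rg, 11.4% all 3 and 27.0% Il4ra alone. In the basophil gate 2 of 48 cells (4.17%) had Il4ra with Il2rg, none had Il13ra1 and 12.5% had Il4ra alone. A chain without a read may be missed at this depth, and median depth ran from 16682 reads in the T gate to 98346 in the fibroblast gate.

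**Figure D3:**
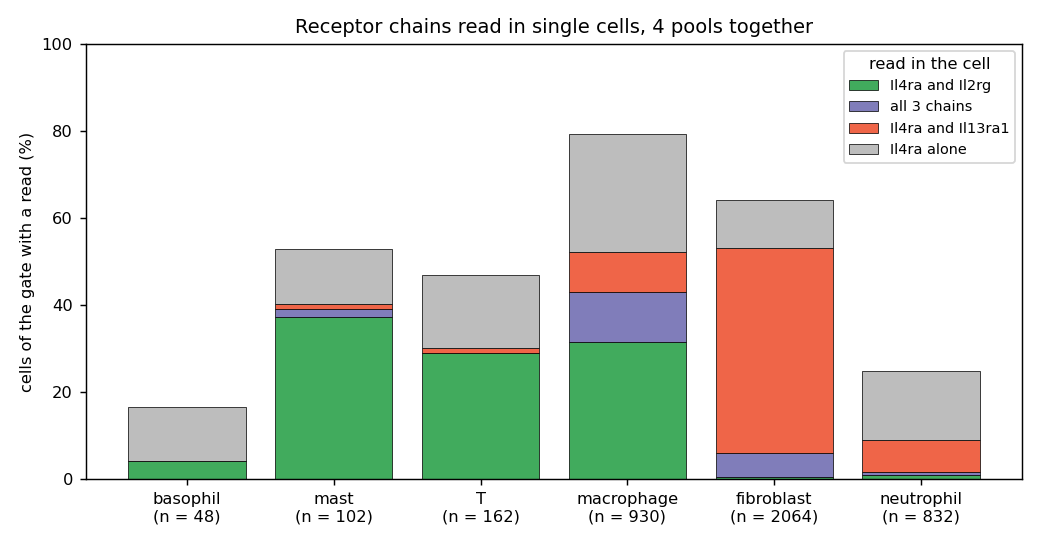
Share of cells in each gate (y axis, percent, 4 pools together) with reads of Il4ra together with Il2rg, with Il13ra1, with both or with neither. The segment with Il13ra1 alone is 47.1% of fibroblast gate cells and 0.980% of mast gate cells, and the segment with Il2rg alone is 0.630% and 37.3%.

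Between gates, 37 of 60 tests of the 6 genes passed an adjusted p of 0.05, among 14924 genes tested in each of 10 pairs. In pairs with the basophil gate the counts, with the share of all genes that passed, were 1 of 6 against mast (10.5%), 3 against T (11.8%), 5 against macrophage (20.4%) and 5 against fibroblast (30.2%). Mast cells gave 3 against T (13%), 6 against macrophage (12.3%) and 6 against fibroblast (19.9%). T cells gave 3 against macrophage (20.7%) and 2 against fibroblast (29.4%), and macrophage against fibroblast gave 3 (21.5%). The fit used 17 sums of at least 10 cells. Its filter on low counts asks for reads in some of the sums only. Il4, Il13 and Il5ra may thus have entered the tests through the gates where they are high. The basophil gate entered with the 2 Ccr2-/- pools only and the mast gate without WT day 5, so the basophil values have no WT sum behind them. Of the 37 calls 16 held in every fit that left out 1 pool, namely 6 of 7 for Il13ra1, 4 of 7 for Il2rg, 4 of 9 for Il4ra, 1 of 6 for Il4, 1 of 6 for Il13 and 0 of 2 for Il5ra. Without Ccr2-/- day 3 there were 20 calls and without Ccr2-/- day 5 there were 22.

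Genotype and day were compared within the T, macrophage and fibroblast gates, to ask whether the cytokine and receptor levels moved with the loss of CCR2 or between the days. No gene described here passed in any of these 6 contrasts. The share of all tested genes that passed was 0.141% for genotype and 0.106% for day in the T gate, 0.0375% and 0 in the macrophage gate, and 0 and 0 in the fibroblast gate. These fits had 1 residual degree of freedom. At an unadjusted p under 0.05 there were 1317 genes for day in the macrophage gate, and in the fibroblast gate 4004 for genotype and 1380 for day, while DESeq2 gave 130, 1384 and 150 calls.

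In the fibroblast gate Il4ra was higher in both Ccr2-/- pools (270 and 327 CPM) than in both WT pools (185 and 127 CPM), without overlap. The difference was 0.99 ± 0.20 (log2 fold change ± SE, edgeR adjusted p = 0.116), and the exact two-sided permutation of the pools gave p = 0.333, the smallest that 2 pools against 2 allow. DESeq2 gave 0.98 (adjusted p = 2e-05), so the call depended on the tool. At 10000 reads per cell 36.1% and 29.7% of WT cells and 55.6% and 58.3% of Ccr2-/- cells had an Il4ra read. Il13ra1 in the same cells differed by 0.027 ± 0.10 between genotypes (adjusted p = 0.923) and by -0.0077 ± 0.10 between days (adjusted p = 0.993). From day 3 to day 5 Il4ra moved down in WT (log2 ratio -0.54) and up in Ccr2-/- (0.27), a difference that was not tested because each cell of that design is 1 pool.

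The make-up and depth of the fibroblast gate moved with genotype. Median depth was 66975 and 69286 reads in WT and 123880 and 118880 in Ccr2-/-. A cluster led by Cxcl5 and Saa3 made up 25.0% and 18.3% of the gate's cells in WT, and 53.1% and 52.8% in Ccr2-/-. In it Il4ra had 290, 247, 333 and 386 CPM. A cluster led by Myoc, Coch and Scara5 made up 50.3%, 60.3%, 29.0% and 25.2%, and in it Il4ra had 42.1, 42.0, 57.3 and 60.5 CPM. Both Ccr2-/- pools were above both WT pools within each of these clusters, but the gap was smaller than over the whole gate. Il4ra was over 5 times higher in the Cxcl5 and Saa3 cluster than in the Myoc cluster of every pool. A further fibroblast cluster (9.58% to 12.1% of the gate's cells) had 141, 20.5, 142 and 295 CPM, with 9 reads in WT day 5. A cluster named chondrocyte from its markers (6.50% to 10.6%) had 114, 55.2, 117 and 209 CPM. In these further clusters the genotypes were nearly level on day 3. On day 5 the ratio of Ccr2-/- to WT was larger there than over the whole gate. With the gate's cells split into 3 classes of equal size by depth, Il4ra had 285, 201, 318 and 382 CPM in the deepest class, 109, 71.7, 173 and 190 CPM in the middle class, and 73.4, 57.4, 107 and 131 CPM in the shallowest. Both Ccr2-/- pools were above both WT pools in each class. The median depth of a pool was 182070 to 208670 reads in the Cxcl5 and Saa3 cluster and 62635 to 76833 in the Myoc cluster. The split by depth thus overlaps with the split by cluster. The clusters were formed without leaving Il4ra out. The part of make-up and depth in the difference was not tested.

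**Figure D4:**
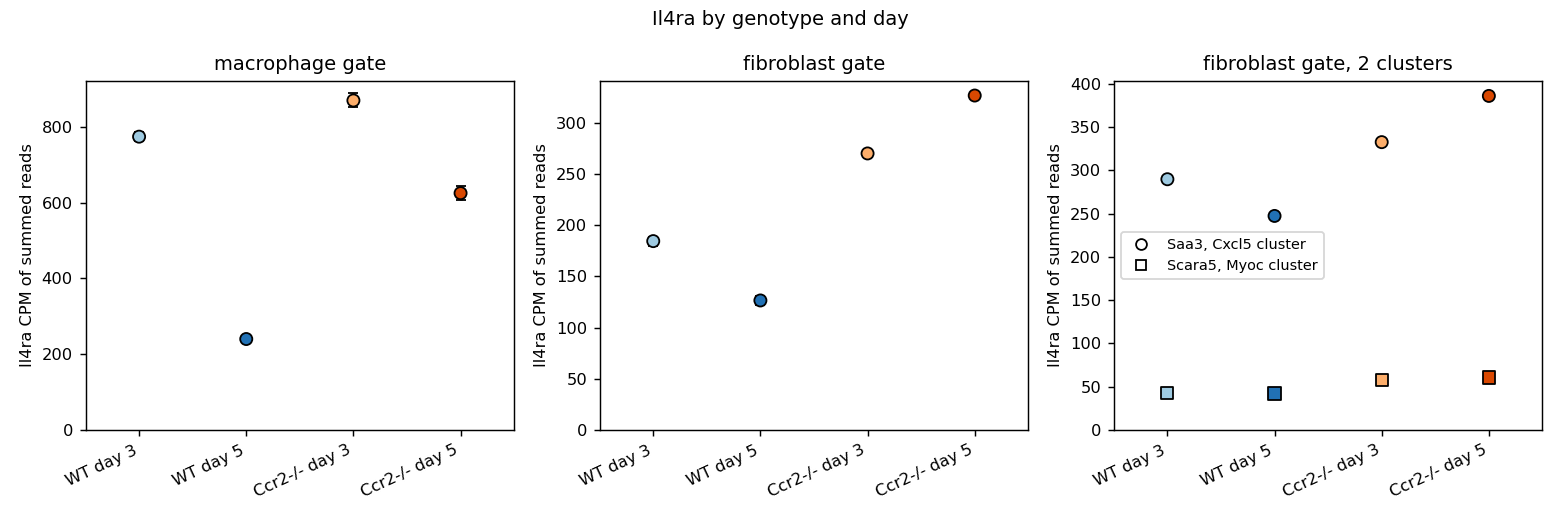
Il4ra in CPM of summed reads (y axes, from 0) by pool in the macrophage gate, the fibroblast gate and, within the fibroblast gate, the Saa3 and Cxcl5 cluster (circles) and the Scara5 and Myoc cluster (squares). Exact Poisson 95% intervals are drawn for the 2 gates, where they exceed the symbol, and not for the clusters. WT day 5 is lowest in the macrophage gate (240 CPM), and the 2 fibroblast clusters shown lie at 247 to 386 and at 42.0 to 60.5 CPM.

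In the macrophage gate Il4ra was lower on day 5 by 1.09 (log2 fold change -1.09 ± 0.29, adjusted p = 0.496), with DESeq2 at adjusted p = 0.0147. WT went from 774 to 240 CPM and Ccr2-/- from 870 to 625 CPM. The genotype difference was 0.81 ± 0.29 (adjusted p = 0.268), but it was -0.025 without WT day 5 and 1.66 without WT day 3. Those fits over 3 pools held genotype without day, so both values mix genotype with day. The genotype difference thus depended on which WT pool was kept. Within the main macrophage cluster, which held 83.1% to 96.7% of the gate, Il4ra had 796, 242, 893 and 629 CPM, an order equal to that of the gate. In the shallowest class of cells by depth the values were 735, 231, 984 and 923 CPM. They were 748, 241, 1078 and 1100 CPM in the middle class and 799, 242, 814 and 462 CPM in the deepest. WT day 5 was lowest in all 3 classes. In Ccr2-/- the fall to day 5 was largest in the deepest class and absent in the middle class. Il2rg in the macrophage gate was lower in Ccr2-/- (68.2 and 77.7 CPM) than in WT (123 and 95.7 CPM), without overlap, at -0.54 ± 0.21 (adjusted p = 0.301, permutation p = 0.333). In the T gate Il2rg was higher in Ccr2-/- (351 and 415 CPM) than in WT (262 and 185 CPM), at 0.82 ± 0.41 (adjusted p = 0.999), and WT day 5 rested on 13 cells. In the mast gate, where WT day 5 had 9 cells and fell below the minimum of 10 for a fit, genotype was compared over the 4 pools without a fit, and the exact permutation over pools gave p = 1 for Il4 and 0.667 for each of Il13, Il4ra and Il2rg.

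Il5ra was sparse in the 5 gates. It had 1124 reads, of which 113 were in 1 cell with 655894 reads. The mast gate had 7.17, 1.62, 4.18 and 19.8 CPM (45 reads in all, 21 of them in 1 cell) and the fibroblast gate 1.08 to 1.43 CPM. Mast against macrophage (3.02 ± 0.82, adjusted p = 0.0217) and against fibroblast (2.74 ± 0.80, adjusted p = 0.0233) passed, but both calls were lost without WT day 5 (0.0615 and 0.0536) or without Ccr2-/- day 5 (0.293 and 0.302), and no value could be had without WT day 3, where Il5ra did not pass the filter. Without the filter on low counts Il5ra passed in neither of these pairs. The eosinophil gate (29 cells, median depth 4969 reads) had 99.5 CPM from 3 cells. The unnamed cluster led by Retnlg, Prg2 and Alox15 had 116, 208, 260 and 161 CPM, with a read in 36 of 275 cells (13.1%), and held 22.8% of all Il5ra reads. At 10000 reads per cell Il5ra was read in 0.784% of NK, 1.17% of fibroblast, 1.45% of macrophage, 5.07% of T (7 of 138 cells), 6.38% of mast and 6.94% of neutrophil gate cells.

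Other genes of the pathway were described as 6 lists. No gene of any list passed in the 6 genotype and day contrasts. Of the 11 ligands of related receptors 6 were tested in the fibroblast gate, 4 in the macrophage gate and 0 in the T gate, and of the 13 related receptor chains 13, 12 and 11 were. Of the 10 signal transducers 10, 10 and 9 were tested, of the 6 feedback inhibitors all 6 in each gate, of the 8 transcription factors 7, 7 and 6, and of the 14 IL-4 and IL-13 response genes 13, 12 and 4. For genotype in the fibroblast gate the median log2 fold changes of these lists were 0.01 (ligands), -0.14 (chains), 0.04 (transducers), -0.07 (inhibitors), -0.34 (factors) and -0.71 (response genes), beside 0.01 over all genes. In the macrophage gate they were -0.37, 0.14, -0.25, 0.04, -0.36 and -0.34, beside -0.03. Single response genes there went both ways, from -1.66 to 1.35. In the T gate the 5 lists with tested genes had -0.52 (chains), 0.745 (transducers), 0.64 (inhibitors), 0.51 (factors) and 0.09 (response genes), beside 0.17. For day the list medians ran from -0.24 to 0.23 in the fibroblast gate, from -0.62 to 0.45 in the macrophage gate and from -0.55 to -0.11 in the T gate, beside -0.004, -0.02 and -0.14 over all genes.

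No list gene had passed, so the 2 genes of each list with the highest CPM over kept cells are described. Among ligands, Il33, an alarmin that acts on mast cells and ILC2s, had 380 CPM in the fibroblast gate and 2.52 to 17.5 in the other 4, and Tslp, another alarmin, had 30.2 CPM in the macrophage and 9.20 in the fibroblast gate. Among chains, Csf2rb had 2032 CPM in mast and 1614 in basophil cells, against 176 in macrophage, 125 in fibroblast and 18.5 in T cells. The decoy chain Il13ra2 had 136, 71.6, 285 and 277 CPM in the fibroblast gate, and at most 3.38 CPM over all pools of any other of the 5 gates. Its genotype difference in fibroblasts was 1.54 ± 0.22 (adjusted p = 0.0901), so the decoy, like Il4ra, was higher in both Ccr2-/- pools and did not pass. Among transducers, Jak1 had 282 to 531 CPM and Stat3 176 to 367 CPM in the 5 gates. The inhibitor Socs3 had 262 to 760 CPM and Socs1 45.1 to 209 CPM.

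Among transcription factors, Maf had 1101 CPM in the macrophage and 482 in the T gate, and Nfatc1 had 21.5 to 96.5 CPM in the 5 gates. Gata2, named after its values were seen, had 1831 CPM in basophil and 1100 in mast cells, 0 in T cells, 1.30 in macrophages and 1.02 in fibroblasts. Gata3, the Th2 factor, named likewise, had 225 CPM in T cells, 16.7 in mast and 2.52 in basophil cells. Gata2 was highest in the 2 gates with the highest Il4, as was Gata1 (21.0 CPM in basophil and 76.3 in mast cells). Maf, Nfatc2 and Irf4 of the same list were lower in those gates than in T and macrophage cells. A link of any factor to Il4 was not tested. Among response genes, Postn, a matrix protein of fibroblasts, had 4470 CPM in the fibroblast gate and 72.1 to 102 in the others, and Klf4 had 1452 CPM in fibroblasts and 1372 in macrophages.

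The genes with the most similar pattern were sought over 42 sums of a gate and a pool (log2 of CPM plus 1, all gates with at least 10 cells), among genes with at least 1000 reads. For Il4 they were P2rx1 (Pearson r = 0.85), Gna14 (0.83) and Csrp3 (0.78), and for Il13 they were Gm8797 (0.76), Ubb (0.74) and Ubb-ps (0.74), near-identical copies whose reads may be split. Il4ra was closest to Rbpj (0.72), Usp53 (0.69) and Brat1 (0.67), Il13ra1 to Marcks (0.87), App (0.82) and Tnfrsf1a (0.80), and Il2rg to Ptpn18 (0.87), Wdr26 (0.79) and Ptpn7 (0.77). Il5ra was closest to Gm10687 (0.79), Grip2 (0.77) and Vmn1r218 (0.67), and Il5, with 65 reads, to Cebpz, Ddx3y and Gm12088 (0.60 to 0.63). No gate marker was among them. The sums share 1 library and differ in depth, so these values describe the sums and have no p.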

How the data were processed

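The authors deposited a matrix of read counts per gene and cell barcode from 1 BD Rhapsody (TAS-Seq) cDNA library, and a matrix of hashtag counts. Per the labels and the study's methods, 10000 hashtag-labelled cells were loaded, reads were trimmed with Cutadapt and mapped with Bowtie2 to mouse Ensembl RNA (GRCm38.p6), and barcodes were chosen at the knee of the read curve. The counts are reads, not molecules, so PCR copies add to them. The tool versions stated in the methods are not repeated here. Values were whole numbers, and whether a background correction had been applied could not be seen from the files. In the hashtag matrix, 9 other columns were not used.

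Cells were assigned to a pool by the top hashtag (at least 10 reads, at least 3 times the next) and kept with at least 200 genes and at most 20% mitochondrial reads. Barcodes with several hashtags were removed as doublets, and no further doublet caller was run. Marker gates (a marker is high at 5% of its 20th highest CPM, at least 50 CPM) were applied and reads summed per gate and pool. Shares of cells were also computed after thinning to 10000 reads. Exact Poisson intervals (95%) and floors of 3 reads cover counting error only.

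Gates were compared with edgeR 4.0.16 (quasi-likelihood, TMM, filterByExpr, pool as covariate, 17 sums of at least 10 cells), and genotype and day within the T, macrophage and fibroblast gates with both factors over 4 pools, with Benjamini-Hochberg adjustment over all genes tested. The scripts were tested on simulated data. Alternatives were other gate thresholds, a hashtag ratio of 10, Leiden clusters, DESeq2 1.42.0, library size scaling, no filter, other models and leaving out each pool. The genotype and day fits that left out a pool held either factor alone. Added after the data were seen were the Mcpt8 set, the fibroblast gate without cells at the Mcpt8 threshold, and Il4ra within clusters and within 3 classes of depth. Named list genes were those past the threshold in a genotype or day contrast, or else the 2 with the highest CPM. Gata1, Gata2, Gata3, Nfatc2 and Irf4 were named outside this rule, after their values were seen. The 3 genes most like each member needed at least 1000 reads. The genes, gates and lists were chosen with earlier results of these data known. Python 3.11.15, Scanpy 1.11.5 and R 4.3.3 were used. Gene positions came from GENCODE M21, which is not the authors' annotation.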

Additional observations from a re-analysis of the deposited data

Results flagged for a closer look

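In the fibroblast gate Il4ra was lower on day 5 than on day 3 in WT (185 and 127 CPM) and higher in Ccr2-/- (270 and 327 CPM), so the pools of the genotypes moved in opposite ways. The difference was not tested, since each genotype and day is 1 pool.

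Barcodes with several hashtags were left out of the comparisons, and they held reads of all 7 genes. Among 529 such barcodes within the limits on genes and mitochondrial reads there were 942 reads of Il4, 344 of Il13, 5 of Il5, 10777 of Il4ra, 4024 of Il13ra1, 1480 of Il2rg and 82 of Il5ra. In CPM this was 22.5 for Il4, 8.21 for Il13, 257 for Il4ra, 96.1 for Il13ra1 and 35.3 for Il2rg, beside 19.8, 4.36, 281, 93.1 and 41.4 in the kept cells.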

How the results depend on the processing

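The share of Il13ra1 reads in the fibroblast gate was 72.0%, and 56.2% with the gate threshold at 10%. That of Il5ra was 29.4%, 42.3% at 2% and 40.3% with Leiden clusters. With Leiden clusters the basophil share of reads was 68.0% for Il4 and 59.1% for Il13, against 5.81% and 11.6% in the basophil gate. The clusters, unlike the gates, were formed without leaving these genes out. The counts of genes past the threshold also moved. For genotype in the T gate (12) there was 1 at a gate threshold of 2%, at 10%, at a hashtag ratio of 10 and with DESeq2, 3 with library size scaling, 5 without a filter and 0 without day in the model, and 1 to 4 without any single pool. For day in the T gate (9) there was 1 at 2%, 0 at 10%, 2 at the hashtag ratio of 10, 1 with DESeq2, 3 with library size scaling and 0 without genotype in the model, and 0 to 20 without any single pool. For genotype in the macrophage gate (6) there were 93 at 2%, 0 at the hashtag ratio of 10, 680 with DESeq2, 2 with library size scaling, 846 without a filter and 0 without day, and 1 to 290 without any single pool. For day there (0), DESeq2 gave 130 and no filter 167. In the fibroblast gate (0 and 0) DESeq2 gave 1384 for genotype and 150 for day, no filter gave 599 for genotype, and leaving out a pool gave 0 to 9 for day. The 37 calls of the 6 genes between gates ran from 20 to 36 without any single pool. The genotype and day fits that left out a pool also left out the other factor. The cause of these shifts was not tested.

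Differences that changed sign had not passed the test. Il2rg in basophil minus mast was 0.12 with the Mcpt8 set, and in basophil minus T 0.037 at a gate threshold of 2% and 0.38 with the Mcpt8 set. Il4ra in T minus fibroblast was 0.081 at 10% and 0.28 with library size scaling. For genotype in the T gate Il4ra was 0.026 at 10% and -0.67 to 0.26 without any single pool. In the fibroblast gate Il13ra1 was -0.0060 for genotype with library size scaling, and for day 0.0066 at 2%, 0.051 at 10% and 0.0052 with library size scaling, and Il2rg for day was 0.065 at 2%. Without any single pool, Il2rg for day ran from -0.81 to 0.46 in the T gate, from -0.49 to 0.32 in the macrophage gate and from -0.97 to 0.25 in the fibroblast gate. In the macrophage gate Il4ra for genotype ran from -0.025 to 1.66, Il13ra1 for genotype from -0.00063 to 0.36 and Il13ra1 for day from -0.37 to 0.012. In the fibroblast gate Il13ra1 for genotype ran from -0.00097 to 0.056, Il4ra for day from -0.88 to 0.51 and Il13ra1 for day from -0.045 to 0.018. No paired analysis was possible because each genotype and day is 1 pool without a replicate number.

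The basophil gate rests on 48 cells and the mast gate on 102, and the WT pools held 4 and 19 of them, so that cytokine levels by genotype are limited by the number of cells. Il5, with 65 reads, allows no comparison.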

Other observations

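The neutrophil gate (832 cells, median depth 10040 reads) had a higher Il13ra1 level (219.6 CPM) than the fibroblast gate (118.9 CPM) over all pools, and Il4ra was read there at 178 CPM. Il13ra1 was read in 25.8% of its cells and Il4ra in 25.0%, and 7.33% had Il4ra with Il13ra1 and no Il2rg. The pericyte gate (50 cells) had 125 CPM of Il13ra1 and the chondrocyte gate (26 cells) 105, of which 39.1% of the reads were in 1 cell. The dendritic gate had 62.1 CPM, the keratinocyte gate 53.8 and the endothelial gate 44.5. The ILC2 gate, with 37 cells, had 377 CPM of Il2rg and 221 of Il4ra, and no read of Il5ra, which allows up to 8.11% of cells with a read.

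The Il4 reads of the fibroblast gate rested on a cell of WT day 3 with 1512 Il4 reads, which also had 552 reads of the basophil gene Mcpt8 and 4036 CPM of the collagen gene Col1a1. A cell of Ccr2-/- day 3 held 552 Il4 reads with Mcpt8 at 982 CPM.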
